A study of Homo sapiens with 6 samples.

Results

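The unfolded protein response is described here through 10 genes, EIF2AK3, ERN1, ATF6, ATF4, XBP1, DDIT3, HSPA5, HERPUD1, TRIB3 and ASNS, out of 19974 protein-coding genes on chromosomes 1 to 22 and X. They were taken by name as sensors, transcription factors and targets of the response, and each peak in the gene body or within 10 kb of it was collected at RefSeq GRCh38 coordinates. The assay was ATAC-seq, which marks open chromatin by where the Tn5 transposase cuts, in Huh7, a liver cancer cell line. All cells had their own ARID1A, a subunit of the SWI/SNF chromatin remodelling complex, knocked out. In its place they stably expressed, from a lentivirus, Flag-tagged ARID1A that was wild type (WT) or carried the missense change V2084D. In the last group (V2084D shSTUB1) the V2084D cells also had a knockdown of STUB1, a ubiquitin ligase that works with chaperones. Each group had 2 libraries. The labels do not say whether replicates were separate cultures or whether a line was 1 clone, and they name no control hairpin, so lower STUB1 and carrying a hairpin cannot be told apart.

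When misfolded proteins gather in the endoplasmic reticulum (ER), membrane sensors start the response. PERK, encoded by EIF2AK3, phosphorylates eIF2α, which favours translation of the factor ATF4. IRE1, encoded by ERN1, splices the XBP1 mRNA, and ATF6 is cut in the Golgi to release a transcription factor. ATF4 drives genes such as DDIT3 (CHOP), TRIB3 and the asparagine synthetase gene ASNS, while ATF6 and spliced XBP1 act on ER stress elements at genes such as the chaperone gene HSPA5 (BiP) and HERPUD1, which serves ER-associated degradation. Secretory cells such as hepatocytes rely on this system.

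Stretches upstream of the starts of 4 members are shown because they hold short elements that these factors are known to bind and because peaks lay over them. They are RefSeq sequence (GRCh38.p14), 5′ to 3′ along the gene, and capitals mark the matched element.
HSPA5, minus strand, chr9:125241371-125241429: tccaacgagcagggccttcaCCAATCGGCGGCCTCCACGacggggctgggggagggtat
XBP1, minus strand, chr22:28800583-28800641: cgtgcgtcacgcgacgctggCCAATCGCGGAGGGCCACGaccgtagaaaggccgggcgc
HERPUD1, plus strand, chr16:56931946-56932055: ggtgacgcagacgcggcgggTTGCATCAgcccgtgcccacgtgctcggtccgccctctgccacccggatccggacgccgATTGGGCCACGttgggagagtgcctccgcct
ASNS, minus strand, chr7:97872449-97872496: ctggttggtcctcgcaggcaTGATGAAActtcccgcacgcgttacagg

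The elements were searched on both strands in the window from 250 bases before to 50 bases after the first annotated start of 15812 protein-coding genes, which include all 10 members. The ER stress element ERSE (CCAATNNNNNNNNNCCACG) matched in 0.114% of these windows and in 2 members, beginning 66 bp upstream of the HSPA5 start and 52 bp upstream of the XBP1 start. ERSE-II (ATTGGNCCACG) matched in 0.0822% of windows and in HERPUD1, 117 bp upstream. The core of the C/EBP-ATF element that ATF4 binds (TGATGNAA) matched in 2.52% of windows and in 2 members, ASNS 68 bp upstream and, on the opposite strand, HERPUD1 176 bp upstream. The core of the UPRE (TGACGTGG), an element bound by ATF6 and XBP1, matched in 0.847% of windows and in no member. No matches overlapped each other. A peak covered the element in 5 of 6 libraries at HSPA5, XBP1 and HERPUD1 (both of its elements), and in all 6 at ASNS. The library without such a peak was WT replicate 2 at HSPA5 and XBP1, and V2084D replicate 1 at HERPUD1.

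The 6 lists held 7401 to 30768 summits, with medians of 8 to 12 reads at a summit. Relative sequencing depth was 1.01 and 1 in WT replicates 1 and 2, 1.17 and 1.70 for V2084D, and 1.49 and 1.23 for V2084D shSTUB1. The 3 deepest libraries, V2084D replicate 2 and both of V2084D shSTUB1, were also the 3 longest lists, and a missing peak means only that none was called at that depth. Of 15 hepatocyte markers, 10 had no peak within 1000 bp of either gene end in any library, among them ALB, AFP and HNF4A, while FOXA3 and CEBPA had one in 5 libraries. APOA1 had one in 3 libraries, and FOXA1 and GPC3 in 1 each. Among all protein-coding genes, 41.8% had none in any library. Gene-end peaks were thus absent at most of these markers, and other sites of the marker genes were not searched. Of 14 leukocyte, endothelial and fibroblast markers 11 had none, COL1A1 had one in all 6 libraries, KDR in 5 and SPI1 in 3.

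Around the 10 genes the lists held 58 distinct peaks, of which 44 lay within 1000 bp of a gene end, 7 inside a gene away from its ends and 7 in the flanks. All 44 gene-end peaks lay at the end where transcription begins. Gene ends in RefSeq are the outermost ends of all transcripts, however, and the annotated starts used for the sequences above lie inside them at EIF2AK3 (by 681 bp), TRIB3 (by 535 bp) and ASNS. The first ASNS start, at 97872408, lies far inside the upstream gene end at 97928441. The downstream end is nearer, 20488 bp from the closest ASNS start. Peaks were therefore also read within 1000 bp of an annotated start, a measure added after the peaks had been seen. Exons and introns were not told apart.

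By gene ends, the WT replicates had a peak at 6 and 4 of the 10 members, the V2084D replicates at 5 and 8, and the V2084D shSTUB1 replicates at 9 and 7. The WT and V2084D counts overlapped, while both V2084D shSTUB1 counts lay above both WT counts. With all lists held to the 7234 strongest summits, the counts were 4 and 4 for WT, 4 and 3 for V2084D, and 4 and 3 for V2084D shSTUB1, and the groups overlapped. At that length the share over all protein-coding genes also varied little, from 24.2% (WT replicate 2) to 26.5% (V2084D replicate 1). Over all protein-coding genes in the full lists the share was 32.3% and 24.2% (WT), 31.1% and 54.7% (V2084D), and 48.1% and 40.6% (V2084D shSTUB1). That is the order of the full-list member counts too, except that V2084D replicate 2 stood above V2084D shSTUB1 replicate 1. By annotated starts the members numbered 7 and 5, 6 and 8, and 9 and 7, against 35.7% and 26.7%, 34.1% and 58.9%, and 52.0% and 44.1% of all genes with a start. WT replicate 1 and V2084D shSTUB1 replicate 2 were then level. With 2 libraries a group, the smallest two-sided p of an exact permutation test is 0.33, so the counts are given as a description.

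**Figure D1:**
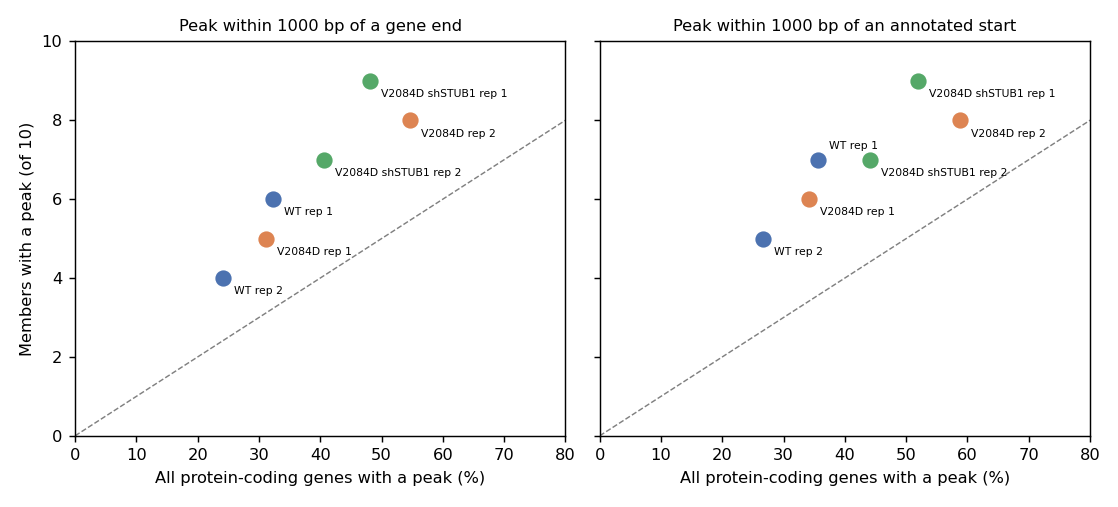
Number of the 10 members with a peak in each library (vertical axis) against the percentage of all protein-coding genes with one (horizontal axis), for gene ends (left) and annotated starts (right); points are single libraries and the dashed line marks equal shares. At gene ends the WT points sit at 6 and 4 members and the V2084D shSTUB1 points at 9 and 7, and every point lies above the line.

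The gene ends of 3 members, EIF2AK3, ATF4 and HSPA5, were marked in every library, as were those of 15.8% of all protein-coding genes. By annotated starts ASNS joined them, making 4 members, against 17.6% of the 15812 genes. DDIT3 had no gene-end or start peak in any library, a state shared by 41.8% of genes at gene ends and 37.9% at starts. The median member had a gene-end peak in 4 of 6 libraries and the median protein-coding gene in 2.

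**Figure D2:**
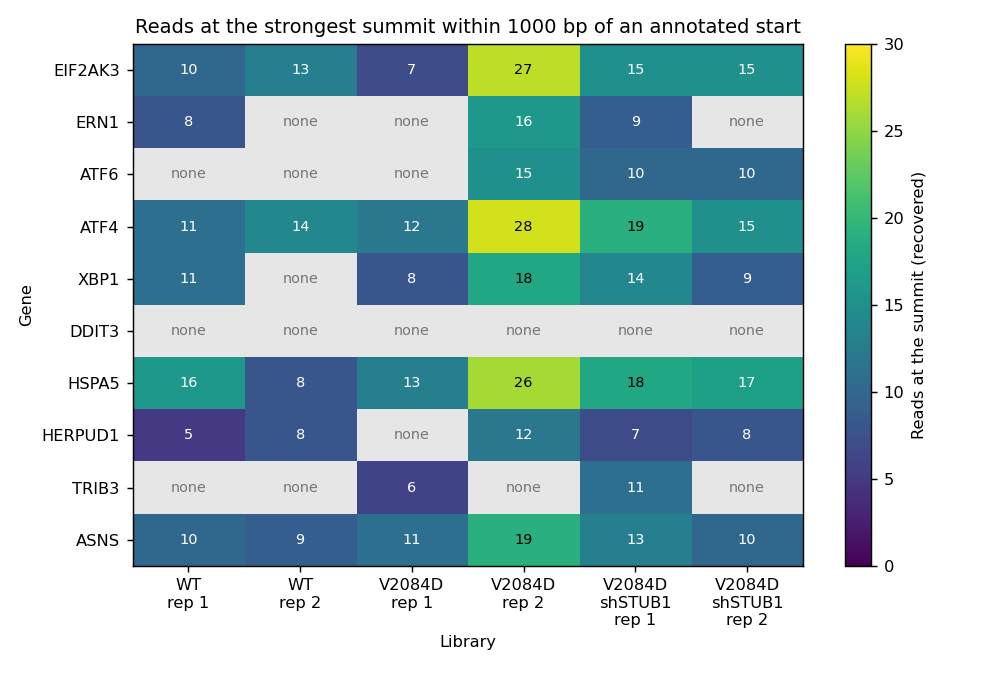
Reads at the strongest summit within 1000 bp of an annotated start, for each member (rows) and library (columns); grey cells marked none had no listed peak. EIF2AK3, ATF4, HSPA5 and ASNS are filled in all 6 libraries, DDIT3 in none, and the highest value is 28 reads, at ATF4 in V2084D replicate 2.

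Of the 3 sensors, only EIF2AK3 (chromosome 2, 88556741 to 88628145), which encodes PERK, had a start peak in every library. Its strongest summit held 10 and 13 reads in WT replicates 1 and 2, 7 and 27 in those of V2084D, and 15 and 15 with the knockdown. The V2084D replicates thus gave both the lowest and the highest value, with 95% Poisson intervals of 2.81 to 14.4 and 17.8 to 39.3 reads that cover counting error only. Divided by relative depth, the values were 9.87 and 13.0, 6.01 and 15.9, and 10.1 and 12.2, so the 3 groups overlapped. The folds over local background, which the authors' caller computed, ran from 4.71 to 8.09. All 6 peaks shared 357 bp just upstream of the start, and 5 of them also covered the start of the divergent long noncoding RNA EIF2AK3-DT. In WT replicate 2 and V2084D shSTUB1 replicate 2 a summit lay 30 and 25 bp from that start, at 88627829. V2084D replicate 2 and V2084D shSTUB1 replicate 1 also had a summit close to it, at 88627849 and 88627868.

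ERN1 (chromosome 17, 64039142 to 64130144), which encodes the kinase and RNase IRE1, had a start peak in 1 library of each group. The reads were 8 in WT replicate 1, 16 in V2084D replicate 2 and 9 in V2084D shSTUB1 replicate 1, at folds of 6, 6.54 and 5.26, and all 3 peaks covered the start and overlapped. In WT replicate 2 the nearest peak to the start lay 15578 bp away, and in V2084D replicate 1 it lay 168146 bp away. V2084D shSTUB1 replicate 2 had a peak of 4 reads inside the gene, 66195 bp downstream of the start, with a fold of 4.17.

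ATF6 (chromosome 1, 161766320 to 161964070), the sensor that is itself a transcription factor, had gene-end peaks in the 3 longest lists and in no other. In both WT libraries and V2084D replicate 1 the nearest peak to the start lay 15845 to 16216 bp away. The strongest gene-end summit held 15 reads in V2084D replicate 2 (fold 5.80), and 10 and 10 in V2084D shSTUB1 (4.55 and 5.50). The peaks were at different places. In V2084D shSTUB1 replicate 1 the summit lay 1183 bp upstream of the start. The V2084D replicate 2 peak with its summit at 934 bp overlapped that peak, and so did one with its summit at 1243 bp. In V2084D shSTUB1 replicate 2 the peak covered the start with its summit 31 bp upstream, and it overlapped a further V2084D replicate 2 peak whose summit lay 373 bp downstream. The 2 knockdown libraries therefore had no ATF6 peak in common. These values also mark the 1000 bp limit. The V2084D replicate 2 peak with its summit at 1243 bp had its near edge 1143 bp from the start, just outside. The near edge of the V2084D shSTUB1 replicate 1 peak, at 876 bp, was inside. The ATF6 start window had a GC content of 47.0% and 17 CpG, the lowest of the 10 members on both measures.

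Among the transcription factors, ATF4 (chromosome 22, 39520559 to 39522686), the main effector of PERK, had gene-end peaks in all 6 libraries. The strongest summits held 11 and 14 reads in the WT libraries, 12 and 28 in V2084D, then 19 and 15 in V2084D shSTUB1. Scaled by depth these became 10.9 and 14.0, 10.3 and 16.5, and 12.8 and 12.2, with V2084D spanning both other groups. No ATF4 peak covered the annotated start in any library. The nearest edge of a peak lay 288 bp upstream, and summits lay 406 to 1117 bp upstream. V2084D replicate 2 listed 3 summits in 1 peak, and WT replicate 2 listed 2 separate peaks, at 852 and 420 bp upstream. At most 5 libraries shared a base. Local background was high here, 1.88 to 4.80 reads, so folds stayed between 3.53 and 5.21 for the strongest summit of each library.

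XBP1 (chromosome 22, 28794560 to 28800569), whose mRNA is the substrate of IRE1, lacked a peak in WT replicate 2 only. Its strongest summit held 11 reads in WT replicate 1, 8 and 18 in V2084D, and 14 and 9 with the knockdown. Per depth these were 10.9, then 6.87 and 10.6, then 9.40 and 7.31, so the single WT value was the highest and the others overlapped. All 5 peaks shared 195 bp upstream of the start, over the ERSE shown above. In WT replicate 1 the summit was 53 bp upstream with a fold of 7.23, the highest fold at this gene.

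DDIT3 (chromosome 12, 57516588 to 57520517) encodes CHOP, a factor linked to cell death under lasting stress. No library listed a peak within 1000 bp of its ends or starts. In V2084D replicate 2 and V2084D shSTUB1 replicate 2 there was a peak with its summit 1928 and 1849 bp upstream, with folds of 2.71 and 4.67 from 12 and 13 reads, and both lay inside the neighbouring gene MBD6. The first of these stood in the lowest 0.878% of its list by −log10 q. In the other 4 libraries the nearest peak to the start was 29372 to 57641 bp away. The DDIT3 start window held 27 CpG at 63.3% GC, against medians of 7 CpG and 55.3% in the 6000 genes without a start peak in any library and 26 CpG and 64.3% in the 2788 genes with one in all 6.

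**Figure D3:**
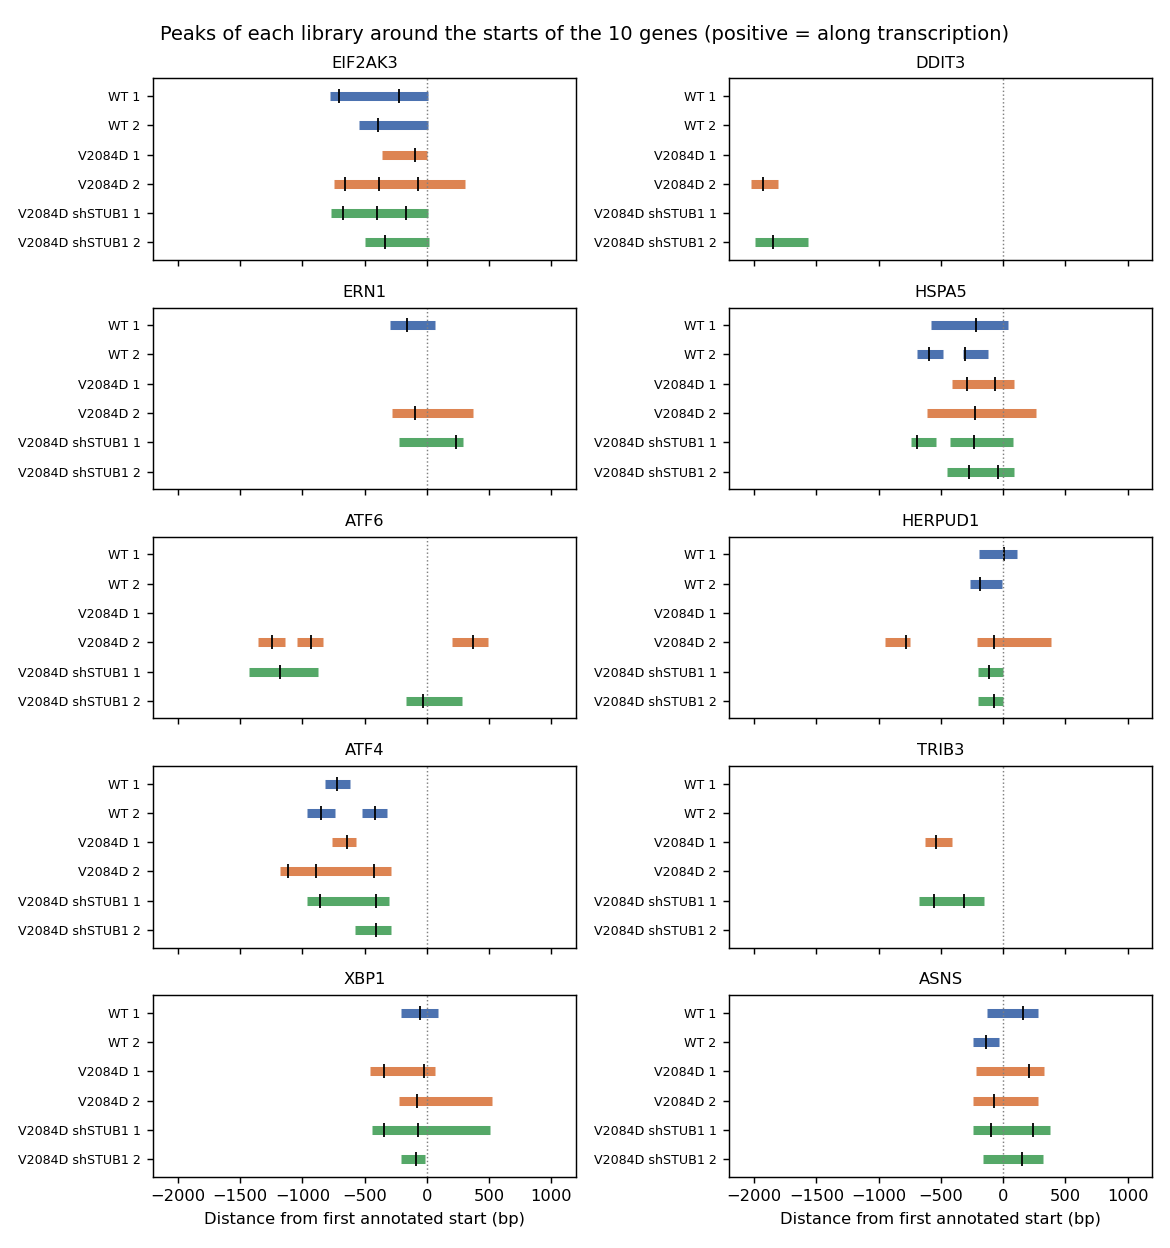
Peaks (bars) and their summits (black ticks) of each library around the first annotated start of each member (dotted line), by distance in bp along transcription; rows are libraries, coloured by group. ATF4 peaks end at least 288 bp upstream of the start, DDIT3 has summits only at 1928 and 1849 bp upstream in 2 libraries, and the ATF6 peaks of the knockdown libraries do not overlap.

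Of the targets, HSPA5 (chromosome 9, 125234853 to 125241343), the gene of the ER chaperone BiP, had the highest fold at a member's start. The strongest summits had 16 and 8 reads in the WT libraries, 13 and 26 in the V2084D libraries, and 18 and 17 in the V2084D shSTUB1 libraries, at folds of 7.33 and 4.89, 7.22 and 8.65, and 7.14 and 7.56. WT replicate 2 was the low library. Its strongest summit stood at the 27.7th percentile of −log10 q in its own list, while the strongest of each of the other 5 libraries stood between the 88.5th and the 96.0th. Scaled by depth the reads were 15.8 and 8, 11.2 and 15.3, and 12.1 and 13.8, so WT spanned the other groups. All 6 libraries shared 200 bp, and WT replicate 2, which had 2 narrow peaks, was the only one whose peaks did not cover the start. The peaks also touched the start of the divergent RNA HSPA5-DT, with a WT replicate 2 summit 4 bp from it.

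HERPUD1 (chromosome 16, 56932142 to 56944864) had a start peak in every library but V2084D replicate 1. The reads were few, 5 and 8 in WT, 12 in V2084D replicate 2, and 7 and 8 in V2084D shSTUB1. The 5 peaks shared 186 bp, and the strongest summits lay from 187 bp upstream to 8 bp downstream of the start. Per depth the values were 4.93 and 8, 7.08, and 4.70 and 6.50, which overlapped between the groups. The peak of 5 reads in WT replicate 1 had a fold of 3.85 and a −log10 q of 1.66, at the 4.54th percentile of its list. V2084D replicate 2 had a further peak with its summit 778 bp upstream.

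TRIB3 (chromosome 20, 380760 to 397559), a pseudokinase gene induced by ATF4 and CHOP, had a gene-end peak in V2084D replicate 1 (6 reads, fold 4.07) and V2084D shSTUB1 replicate 1 (11 reads, fold 6.12) only. The peaks overlapped by 217 bp at the outer gene end and covered none of the annotated starts, the nearest edge being 153 bp upstream. The start window had 77.0% GC, the highest of the members. At the other side, V2084D replicate 2 and V2084D shSTUB1 replicate 2 had a peak 9815 and 9982 bp beyond the gene (folds 6.69 and 8.33), near the start of RBCK1. The nearest peaks of WT replicate 1 and V2084D shSTUB1 replicate 1 past the 10 kb limit lay 10026 and 10075 bp from the gene, so they just missed it. ATF4 had similar peaks 9931 and 9942 bp beyond its end in V2084D replicate 2 and V2084D shSTUB1 replicate 1, within 72 bp of an end of the RPS19BP1 gene. For ATF4 too, peaks just missed the 10 kb limit. The nearest past it lay 10053 bp from the gene in WT replicate 1 (fold 4.41) and 10028 bp in V2084D shSTUB1 replicate 2 (fold 5.22).

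ASNS (chromosome 7, 97851677 to 97928441) had peaks at 2 places. At its annotated starts, all 6 libraries had a peak, with 10 and 9 reads for WT, 11 and 19 for V2084D, and 13 and 10 for V2084D shSTUB1. Their folds were 6.25 and 6.58, 7.23 and 8.40, and 6.42 and 6.55. The strongest summit of each stood between the 67.4th and the 90.4th percentile of its list, the narrowest range among the members present in all libraries. Per depth the reads were 9.87 and 9, 9.44 and 11.2, and 8.72 and 8.12, so the V2084D shSTUB1 values were the lowest. The difference was smaller than the counting intervals of the reads, such as 4.80 to 18.4 for 10 reads. All 6 peaks shared 97 bp, which held the C/EBP-ATF element. With a −log10 q of at least 5, ASNS alone of the 10 kept a start peak in all 6 libraries, as did 3.58% of all genes.

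The distal place was the upstream end of the RefSeq gene, 56038 to 56055 bp from the first annotated start by summit, inside the long noncoding RNA gene CZ1P-ASNS. Peaks there were listed in V2084D replicate 2 (9 reads, fold 5.38) and in both V2084D shSTUB1 libraries (12 and 6 reads, folds 6.63 and 4.73), and they overlapped. No peak was listed there in WT or in V2084D replicate 1. These are the same 3 deepest libraries that listed the ATF6 peaks, and the part that depth plays was not tested. ASNS therefore counts 3 libraries by gene ends and 6 by annotated starts.

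**Figure D4:**
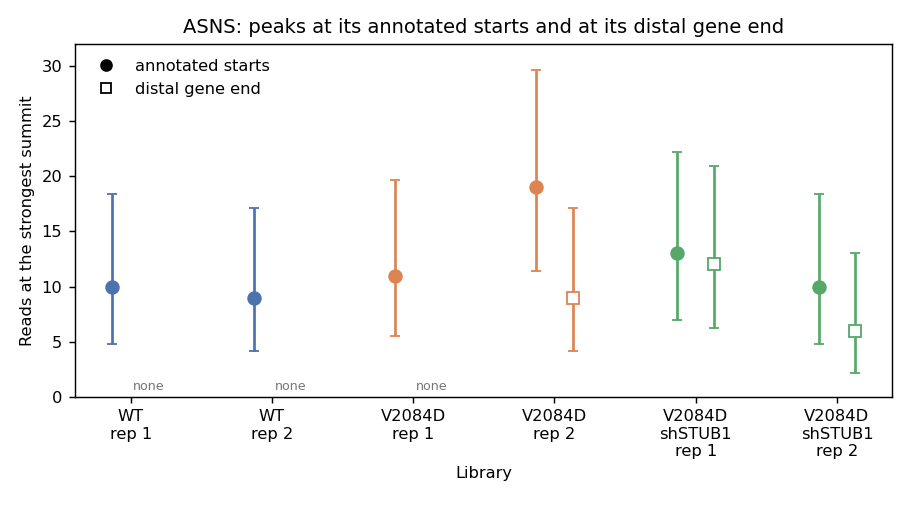
Reads at the strongest ASNS summit in each library, at its annotated starts (filled circles) and at its distal gene end (open squares), with 95% Poisson intervals for counting error; colours mark the groups. The starts hold 9 to 19 reads in all 6 libraries, and the distal end has a peak in 3 libraries with 6 to 12 reads.

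For WT against V2084D, which asks what the missense form changes, no member had its gene end marked in both replicates of either group and unmarked in the other group. Among all genes 0.0501% did so for WT and 5.07% for V2084D (5.27% by annotated starts). Single libraries decided these zeros. Without V2084D replicate 2 the WT direction held HERPUD1 (and 3.49% of all genes) and the V2084D direction TRIB3 (5.52%). Without V2084D replicate 1 the V2084D direction held ATF6 and ASNS (18.9%), and without WT replicate 1 it held XBP1 (12%).

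For V2084D against V2084D shSTUB1, which asks what the STUB1 hairpin changes, no member qualified either, against 0.656% of all genes in the V2084D direction and 0.365% in the shSTUB1 direction. Without V2084D replicate 2 the shSTUB1 direction held 3 members, ATF6, HERPUD1 and ASNS, and 10.8% of all genes. All 3 had a gene-end peak in V2084D replicate 2 itself.

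For WT against V2084D shSTUB1, 2 members, ATF6 and ASNS, had a gene-end peak in both knockdown libraries and in neither WT library, as did 7.07% of all genes, and no member showed the reverse, as did 0.135%. The ATF6 peaks did not overlap each other, and the ASNS peaks were those of the distal end. By annotated starts 1 member remained, ATF6, against 7.35% of genes. With a −log10 q of at least 5, or with all lists at equal length, none did. These comparisons share libraries, so they are not independent of each other.

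The other genes of the pathway were read in the same way, as 61 genes in 5 roles chosen by known function. The 6 libraries all marked the gene ends of 28 of them (45.9%, against 15.8% of all protein-coding genes). None marked those of 7 of the 61, while 41.8% of all protein-coding genes were unmarked in every library. The median was 5 libraries, against 2 for all protein-coding genes. Genes of ER-associated degradation had a peak in all 6 in 8 of 12 cases, led by the mannosidase gene EDEM3 (folds 6.09 to 8.54) and the segregase gene VCP (6.61 to 8.33). ER chaperones and folding enzymes followed with 8 of 16, led by the lectin chaperone gene CANX (6.44 to 8.48) and the protein disulfide isomerase gene P4HB (6.61 to 9.38). The list with IRE1 partners and XBP1 targets had 4 of 9, led by the signal recognition particle gene SRP54 and the translocon gene SEC61B. The list for PERK and the integrated stress response had 6 of 17, led by EIF2S1, which encodes the eIF2α that PERK phosphorylates (6.79 to 12.3), and CHAC1, a glutathione-degrading enzyme gene. ATF6 and related membrane factors had 2 of 7, the factor gene CREB3L2 and MBTPS1, the site-1 protease that cuts ATF6.

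Genes with no gene-end peak listed in any library included the stress-induced factor genes ATF3 and CEBPB, the adaptor gene TRAF2, the IRE1 paralog ERN2, ATF6B and PDIA6. At annotated starts TRAF2 had a peak in 3 libraries and PDIA6 in 1.

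Among the 61, 5 genes had peaks in both replicates of a group and none in another group. The serine synthesis gene PHGDH had gene-end peaks in both V2084D libraries (folds 6.08 and 4.03) and in no other, but they lay at opposite ends of the gene. SEC63, an ER translocation gene, had overlapping peaks in both V2084D libraries (5.06 and 5.61) and in V2084D shSTUB1 replicate 1, and none in WT. CEBPG, a partner of ATF4 at its target sites, had overlapping peaks in both V2084D shSTUB1 libraries (5.49 and 6.10) and in V2084D replicate 2. The peaks at EIF2AK2, which encodes the eIF2α kinase PKR, did not overlap between the knockdown libraries (6.79 and 6.96), and V2084D replicate 2 had a further one (4.55). DNAJB11, a BiP co-chaperone gene, had peaks in both WT libraries (7.53 and 5.23), in V2084D replicate 2 (4.74) and in neither knockdown library. By direction, 2 of 61 genes were V2084D-only against WT (5.07% of all genes) and none WT-only (0.0501%). Against V2084D shSTUB1, 1 was V2084D-only (0.656%) and none shSTUB1-only (0.365%). Between WT and V2084D shSTUB1, 2 were shSTUB1-only (7.07%) and 1 was WT-only (0.135%).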

How the data were processed

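Per the submitters' processing notes, the reads went through tools that include Trimmomatic, Bowtie2, Picard, SAMtools, bedtools, deepTools and MACS2, with hg38 as the build. Tool versions, the caller's settings and whether reads were moved to the Tn5 cut are not stated there. Each library has its own narrowPeak list, so the authors called peaks per sample. The fold, a ratio over local background, and the −log10 p and q of every summit are the authors' deposited values. Groups came from the titles.

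Reads and local background at each summit were recovered from fold and −log10 p with a Poisson model and a pseudocount of 1, which gave whole reads within a tolerance of 0.001 for 99.9889% of summits in V2084D replicate 1 and a larger share in every other library, and was tested on simulated data. The lowest background set relative depth. Intervals are exact 95% Poisson intervals. A percentile is the share of a list's summits with an equal or lower −log10 q. Genes and promoter windows came from RefSeq tables (GRCh38.p14), and a peak counted with an overlap of 1 bp. No test was run on the members. The members and gene lists were chosen with earlier results of these data known. The named pathway genes were those with a both-and-neither pattern, those with no gene-end peak, and per role the 2 with the highest mean percentile among genes with a peak in all 6 libraries. Some genes that these rules name are not reported here. Alternatives are given in the closing section. Python 3.11.15, pandas 2.3.3 and SciPy 1.17.1 were used.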

Additional observations from a re-analysis of the deposited data

How the results depend on the processing

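Median summits held 8 to 12 reads, and a peak that was not listed may lie under the calling limit of its library. With a −log10 q of at least 5, members with a gene-end peak in all 6 libraries fell from 3 to 0, all genes from 15.8% to 3.18% and pathway genes from 28 to 8. Members with a peak elsewhere, inside the gene or in its flanks, fell from 6 to 3, and shSTUB1-only members against WT from 2 to 0. Peaks elsewhere include those at the ASNS starts. No share of all genes is given for the elsewhere counts, or for the shSTUB1-only count in changed settings, so neither is read as particular to the members. With every list at 7234 summits, pathway genes, members with a peak elsewhere and shSTUB1-only members numbered 16, 2 and 0, and all genes marked in all 6 libraries stood at 8.41%. Members per library then fell from 8 to 3 in V2084D replicate 2, from 9 to 4 in V2084D shSTUB1 replicate 1 and from 7 to 3 in its replicate 2. The shares of all genes with a gene-end peak in these libraries fell too, from 54.7%, 48.1% and 40.6%. At equal length that share lay between 24.2% and 26.5% in every library, so the falls are not read as particular to the members. The shSTUB1-only count against WT was 1, ASNS, with reads scaled to the lowest depth, with windows of 500 bp, and with the summit required in the window. It was also 1 with annotated starts, a setting added after seeing the data, but the member was then ATF6. Leaving out 1 library at a time gave 0 to 1 WT-only and 0 to 2 V2084D-only members in the first comparison, and 0 to 3 shSTUB1-only members against V2084D. Of 118 recomputed counts, 16 moved by over 1.5 times and 42 stayed within that. The other 60 were 0 in both settings, many by leaving out a library outside the comparison, and say nothing of stability. The cause of the moves was not tested. No paired analysis was possible because no test was run, and a peak in both libraries and in neither of the other group reads the same with or without pairing by number.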
